A study of Mus musculus with 6 samples.

Results

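The genes described here encode parts of the contact between a cell and the extracellular matrix: Dag1, Lamc1, Lamb3, Thbs3, Itga7 and Npnt, 6 of the 54232 genes in the deposited table. They were picked by name with the results of the comparison below already known, and all 6 had an adjusted p under 0.05 in it. Their differences between genotypes are therefore given as a description. Adjusted p-values of the 6 are given only to show how a call depends on the processing, and tests read as results concern other genes. All 6 passed the filter on low counts, in a data set in which 13602 genes did.

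The libraries hold RNA of spleen Treg cells of mice, sorted as GFP-positive; Treg (regulatory T) cells are a CD4 T cell subset that restrains immune responses. One group came from conventional knockout (KO) animals lacking BAF60b, a subunit of the SWI/SNF chromatin remodelling complex encoded by Smarcd2, and the other from wild-type (WT) animals, with 3 libraries each. The KO is not restricted to Treg cells, so any cell of those animals can lack the protein, and the labels give no age, sex or strain and do not say which gene drives GFP. The study asks about Treg cell migration, by its title, and contact with matrix is part of how cells migrate.

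Laminins are matrix proteins built from an alpha, a beta and a gamma chain, and they form the scaffold of basement membranes, including those under blood vessels that T cells cross. Cells bind them through integrins, which are pairs of an alpha and a beta chain, and through dystroglycan, which carries a laminin-binding sugar chain outside the cell and binds dystrophin or utrophin inside it. Thrombospondins and nephronectin are secreted matrix proteins that are not part of the laminin scaffold.

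Libraries held between 19365472 and 22502804 reads in KO and between 18167053 and 21038091 reads in WT. Smarcd2 had 58.2 ± 0.75 CPM in KO and 198.5 ± 6.25 CPM in WT (CPM, read counts scaled to library size by TMM, SD, n = 3 each; log2 fold change -1.77, SE 0.05). The 7 Treg markers summed to between 4407 and 4770 CPM in KO and between 4199 and 4345 CPM in WT. Markers of cells that make much laminin were low or carried by 1 gene. Of 7 stromal markers, Col3a1, Lum and Pdgfra were at 0 in every library, and the list summed to between 2.01 and 2.49 CPM in KO and between 1.53 and 2.05 CPM in WT. Of 6 endothelial markers, Kdr and Emcn were at 0 in every library and Pecam1, which T cells also express, held nearly all reads. Of 6 epithelial markers, 4 keratin genes were at 0 in every library and Epcam held nearly all reads. That list summed to between 18.5 and 22.9 CPM in KO and between 28.5 and 34.5 CPM in WT. Macrophage and monocyte markers summed to between 14.0 and 96.0 CPM in KO and between 26.6 and 33.3 CPM in WT. Transcripts of the Y chromosome were at 0 in KO 2 and WT 1 and present in the other 4 libraries.

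In KO Treg cells, Lamc1, Thbs3, Itga7 and Npnt were higher and Dag1 and Lamb3 were lower, and for each of the 6 the KO and WT values did not overlap. Of all tested genes 6.45% were called in either direction, 3.25% as higher and 3.2% as lower in KO, and 25.7% had groups that did not overlap. Since the genes were picked on this comparison, their count is not read against those shares. The largest ratio of KO to WT was that of Npnt (2.52), the gene with the fewest reads, and the ratio closest to 1 was that of Dag1 (0.787). The median absolute log2 fold change was 0.49 among all called genes and 0.11 among all tested genes. These are bulk libraries, so fewer cells of a type and less RNA per cell cannot be told apart.

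**Figure D1:**
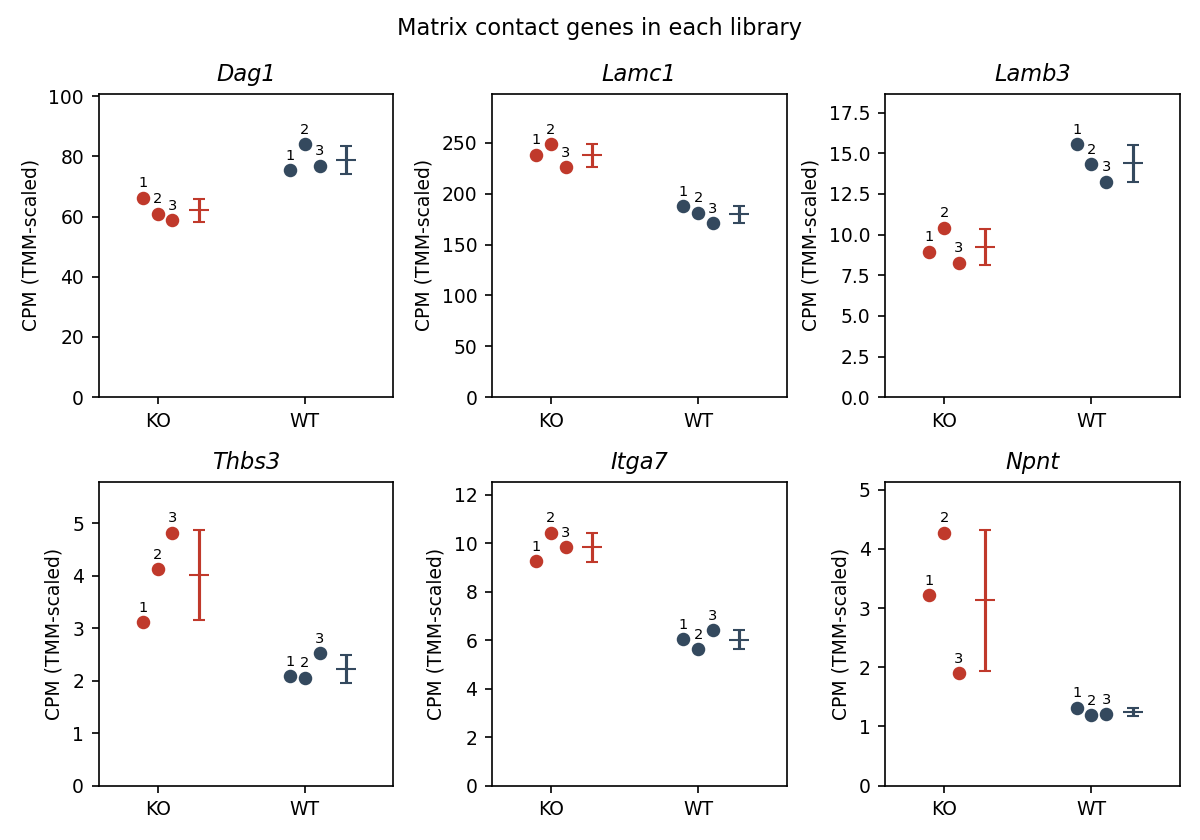
Each panel plots the TMM-scaled CPM of 1 gene (vertical axis, from 0) in the 3 KO and the 3 WT libraries, numbered by replicate, with the group mean ± SD beside the points. In every panel the 2 groups are apart. The KO points of Npnt spread most, between 1.90 and 4.27 CPM, while its WT points lie between 1.19 and 1.32 CPM.

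For 4 of the 6 genes RefSeq lists a promoter window (build GRCm38.p6). These are shown because the genes differ in direction, Dag1 and Lamb3 being lower and Thbs3 and Npnt higher in KO, and each is the 250 bases before the first listed start. Capitals mark GC boxes (GGGCGG) and CCAAT boxes (CCAAT) on either strand. The windows are chr9:108263959-108264208 (minus strand) for Dag1, chr1:193301744-193301993 (plus strand) for Lamb3, chr3:89214930-89215179 (plus strand) for Thbs3 and chr3:132950292-132950541 (minus strand) for Npnt.
Dag1: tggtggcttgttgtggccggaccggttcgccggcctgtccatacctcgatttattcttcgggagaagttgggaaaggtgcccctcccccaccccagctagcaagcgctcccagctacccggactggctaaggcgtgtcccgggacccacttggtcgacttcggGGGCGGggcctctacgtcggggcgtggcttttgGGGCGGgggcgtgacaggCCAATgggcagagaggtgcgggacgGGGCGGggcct
Lamb3: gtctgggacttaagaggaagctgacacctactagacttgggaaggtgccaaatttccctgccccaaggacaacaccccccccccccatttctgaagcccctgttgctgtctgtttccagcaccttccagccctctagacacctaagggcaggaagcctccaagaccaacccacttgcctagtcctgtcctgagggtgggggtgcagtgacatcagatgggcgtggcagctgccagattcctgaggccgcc
Thbs3: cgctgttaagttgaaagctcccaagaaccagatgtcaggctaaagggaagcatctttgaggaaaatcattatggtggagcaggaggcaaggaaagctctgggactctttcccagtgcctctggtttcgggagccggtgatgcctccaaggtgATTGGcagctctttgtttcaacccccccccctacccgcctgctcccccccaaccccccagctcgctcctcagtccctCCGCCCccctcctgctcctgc
Npnt: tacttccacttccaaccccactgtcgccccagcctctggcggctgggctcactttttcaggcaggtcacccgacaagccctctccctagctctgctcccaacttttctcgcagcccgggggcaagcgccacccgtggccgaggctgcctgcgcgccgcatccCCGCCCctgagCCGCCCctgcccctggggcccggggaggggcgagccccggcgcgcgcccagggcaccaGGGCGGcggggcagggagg
Dag1 held 3 GC boxes and 1 CCAAT box, Thbs3 had 1 of each, Npnt had 3 GC boxes, and Lamb3 had none of either. Of all 32817 promoter windows of this length, 32.7% held a GC box and 33.8% a CCAAT box. The GC content was 67.6% for Dag1, 58.8% for both Lamb3 and Thbs3 and 74.0% for Npnt, against a median of 52.4% over all windows. Searched on both strands, the letters TGANTCA (AP-1, in 6.75% of all windows) and TGTGGT (RUNX, in 14.0%) were in none of the 4 windows. TGGAAA (NFAT, in 18.6%) and TGTTTNC (forkhead, in 17.8%) were each in the Lamb3 window once, overlapping each other. The counts are per gene, so they do not tell which start was used.

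Dag1 encodes the dystroglycan precursor, which is cut into an outer laminin-binding subunit and a membrane-spanning one. The gene lies on chromosome 9 (108204634 to 108263958, minus strand, mm10), and no annotated exon of another gene overlaps it. It had 66.3, 61.0 and 58.9 CPM in KO 1, 2 and 3, against 75.5, 84.1 and 77.0 CPM in WT 1, 2 and 3. Every KO library lay below every WT library and the gap between the groups exceeded the SD of either. The log2 fold change was -0.35 (SE 0.06), from 62.0 ± 3.81 CPM in KO and 78.9 ± 4.61 CPM in WT. Its spread within a genotype was small, at 6.14% of the mean in KO and 5.85% in WT.

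Lamc1 encodes laminin γ1, the gamma chain of most laminins. It lies on chromosome 1 (153218922 to 153332786, minus strand), and was the most abundant of the 6 genes. It had 238.3, 248.8 and 226.1 CPM in KO 1, 2 and 3, against 187.7, 181.3 and 170.9 CPM in WT 1, 2 and 3. All KO libraries were above all WT libraries, and replicates were close, with an SD of 4.78% of the mean in KO and 4.71% in WT. The log2 fold change was 0.40 (SE 0.05). A pseudogene, Gm8818, lies in a Lamc1 intron on the opposite strand, shares no exon with it, and was not called (log2 fold change 0.21, edgeR adjusted p = 0.500).

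Lamb3 encodes laminin β3, a beta chain of epithelial laminin. The gene is annotated on chromosome 1 from 193207699 to 193343878 on the plus strand, and its promoter window printed here lies inside that span, at a later annotated start. It had 8.94, 10.43 and 8.27 CPM in KO 1, 2 and 3, against 15.6, 14.3 and 13.3 CPM in WT 1, 2 and 3. The 3 KO values were lower than all WT values, at a ratio of KO to WT of 0.641 (log2 fold change -0.64, SE 0.12). The span of Lamb3 holds other annotated genes, none of which shares an exon with it. One of them, named here after its values were seen, is Gm37691, a same-strand transcript of unknown coding status. It fell with 10.05, 12.5 and 11.1 CPM in KO, against 16.9, 17.4 and 15.3 CPM in WT (log2 fold change -0.56, SE 0.11, edgeR adjusted p = 0.0128). Leaving out WT replicate 1 (adjusted p = 0.0643) or 2 (adjusted p = 0.0690) ended that call. Hsd11b1, on the opposite strand within the same span, was not called (log2 fold change 0.34, edgeR adjusted p = 0.0920). The summed epithelial markers, nearly all Epcam, were lower in every KO library than in every WT library too. Krt18, the only keratin marker with reads, was not, at 19, 11 and 12 reads in KO and 9, 12 and 8 in WT. The summed B cell markers were also lower in every KO library, between 8.36 and 11.1 CPM against between 14.3 and 17.0 CPM in WT. The part of these markers in the Lamb3 difference was not tested.

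The receptor gene Itga7 encodes integrin α7, which pairs with the product of Itgb1 to bind laminin and is best known from muscle. It lies on chromosome 10 (128933818 to 128958282, plus strand). It had 9.25, 10.43 and 9.82 CPM in KO 1, 2 and 3, against 6.03, 5.64 and 6.40 CPM in WT 1, 2 and 3. The lowest KO library was above the highest WT library by more than the SD of either group, and the log2 fold change was 0.71 (SE 0.12). Mettl7b shares 9 exon bases with it on the opposite strand and had 0 reads in every library.

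Thbs3 encodes thrombospondin-3, a secreted calcium-binding matrix protein, on chromosome 3 (89215180 to 89226837, plus strand). It had 62, 81 and 109 reads in KO 1, 2 and 3, against 38, 43 and 50 reads in WT 1, 2 and 3. These reads were 4.02 ± 0.86 CPM in KO and 2.22 ± 0.26 CPM in WT. The KO values ranged wider than the WT values, KO 1 lying closest to WT, and the log2 fold change was 0.86 (SE 0.22). Exons of Mtx1 on the opposite strand cover 318 bases, or 6.59%, of the Thbs3 exons, and whether reads were counted by strand is not stated in the labels or the header. Mtx1 itself had 347, 305 and 412 reads in KO, against 257, 331 and 334 reads in WT (log2 fold change 0.13, edgeR adjusted p = 0.519), so the count of Thbs3 is uncertain. With the Y-linked level of each library as a covariate, the adjusted p of Thbs3 was 0.0691 in edgeR, at a log2 fold change of 0.81.

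Npnt encodes nephronectin, a secreted matrix protein known as a ligand of the integrin made from Itga8 and Itgb1 in kidney development. It lies on chromosome 3 as well (132881745 to 132950291, minus strand), and no annotated exon of another gene overlaps it. It had 64, 84 and 43 reads in KO 1, 2 and 3, against 24, 25 and 24 reads in WT 1, 2 and 3. In CPM these were 3.22, 4.27 and 1.90 in KO and 1.32, 1.19 and 1.21 in WT. WT libraries were nearly level while KO libraries differed among themselves, with an SD of 38.0% of the mean in KO and 5.32% in WT. The log2 fold change was 1.33 (SE 0.31). It was 1.03 without KO replicate 2 and 1.59 without KO replicate 3. The order of the KO libraries was that of the macrophage and monocyte markers, which summed to 44.3, 96.0 and 14.0 CPM in KO 1, 2 and 3. In KO 3 those markers lay below all WT libraries, and Npnt lay above all of them. The dendritic cell, erythroid, plasma cell, endothelial and neutrophil markers had the same order in KO. So did Lamc1 (238.3, 248.8 and 226.1 CPM in KO 1, 2 and 3) and Lamb3 (8.94, 10.43 and 8.27 CPM). The part of any of these cell types, macrophages and monocytes included, in the differences of Npnt, Lamc1 and Lamb3 was not tested.

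Per kb of annotated exon, the only scale on which genes are compared here, the 6 genes could be ordered by their level. Lamc1 had 28.7 ± 1.37 CPM per kb in KO and 21.8 ± 1.02 in WT, and Dag1 had 9.76 ± 0.60 in KO and 12.4 ± 0.73 in WT. Lamb3 followed with 1.39 ± 0.17 in KO and 2.18 ± 0.17 in WT, and Itga7 with 1.21 ± 0.07 in KO and 0.74 ± 0.05 in WT. Thbs3 had 0.83 ± 0.18 in KO and 0.46 ± 0.05 in WT, and Npnt 0.62 ± 0.24 in KO and 0.25 ± 0.01 in WT. In KO, Lamb3 and Itga7 differed by less than the sum of their SDs, and so did Thbs3 and Npnt. In WT every neighbouring pair in this order was further apart than the sum of its SDs. By this level Lamc1 exceeded 81.4% of the other tested genes in WT, Dag1 68.4%, Lamb3 30.7%, Itga7 16.5%, Thbs3 11.6% and Npnt 6.04%.

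Other laminin chains were scarce. Lama1, Lama2, Lama3, Lama4, Lamb1, Lamb2 and Lamc3 had at most 3 reads in any library, so the usual beta partners of γ1 were not detectable above the level that a count of 0 allows (3 counts, between 0.133 and 0.164 CPM in a library). Lama5, which encodes the α5 chain of vessel basement membranes, had 11.00, 9.41 and 13.0 CPM in KO and 7.40, 8.69 and 7.71 CPM in WT, and was not called (log2 fold change 0.49, SE 0.14, edgeR adjusted p = 0.0669). Its adjusted p was 0.0330 without KO replicate 2 and at least 0.117 without any other 1 library. Of the summed level of all 11 laminin chains per kb, Lamc1 held 91.6 ± 0.47% in KO and 87.9 ± 0.17% in WT. Lamb3 held 4.43 ± 0.34% in KO and 8.78 ± 0.29% in WT, so laminin transcripts in these cells were mostly those of a single gamma chain in both genotypes.

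**Figure D2:**
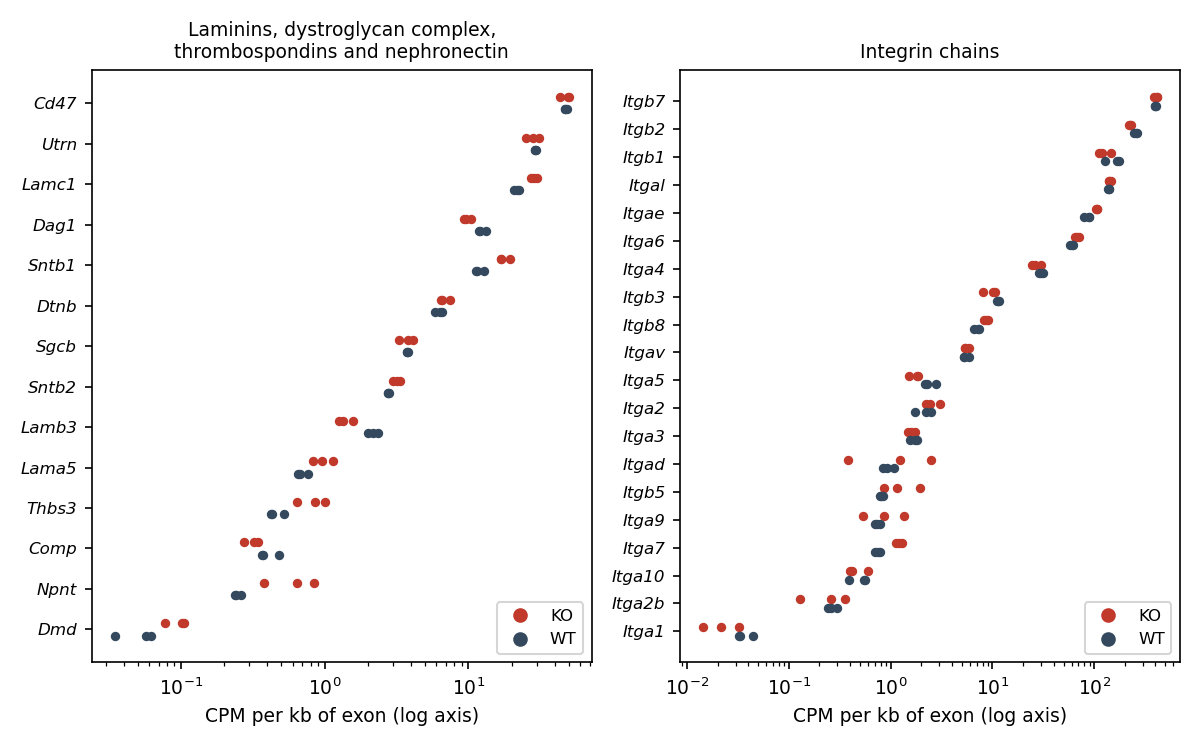
The horizontal axis, on a log scale, gives CPM per kb of exon in each KO library and each WT library, for tested genes of the laminin, dystroglycan complex, thrombospondin and nephronectin lists (left) and of the integrin lists (right), ordered by their WT mean. Lamc1 stands far above the other laminin chains, at 28.7 in KO and 21.8 in WT. Itga7 stands far below Itga6, at 1.21 in KO and 0.74 in WT.

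Among the 3 laminin-binding integrin alpha chains Itga3, Itga6 and Itga7, Itga7 held 1.71 ± 0.18% of the summed level per kb in KO and 1.19 ± 0.09% in WT. Itga6 held 96.0 ± 0.24% in KO and 96.1 ± 0.34% in WT. Its own level was 616.0 ± 28.8 CPM in KO and 544.8 ± 17.6 CPM in WT, in groups that did not overlap. Itga6 was not called (log2 fold change 0.18, SE 0.05, edgeR adjusted p = 0.0794). Itgb1, the beta chain that all 3 alpha chains can pair with, had 492.0, 590.8 and 459.3 CPM in KO and 683.4, 520.9 and 708.7 CPM in WT. Its groups overlapped and it was not called (log2 fold change -0.31, edgeR adjusted p = 0.177). Itga8, the partner chain of the nephronectin receptor, had 0 reads in every library, as had Itgb6, and Itgb4 had at most 6. Of the 17 alpha chains other than Itga7, 13 were tested, and Itgae, which encodes the CD103 chain, rose (log2 fold change 0.31, SE 0.06, edgeR adjusted p = 0.0109). Of the 8 beta chains 6 were tested. Itgb8, whose product helps to activate TGF-beta, rose (0.29, SE 0.06, adjusted p = 0.0189) and Itgb2, the common chain of leukocyte integrins, fell (-0.19, SE 0.05, adjusted p = 0.0473). The call of Itgb8 was lost without any 1 of the WT libraries (highest adjusted p = 0.0963), and that of Itgb2 without any 1 library (highest 0.178). Itgb2 also lost its call under upper-quartile scaling (0.0598), library size alone (0.0518), the replicate block (0.108) and the Y-linked covariate (0.0709). Itgb3 (-0.24, adjusted p = 0.163), Itgb5 (0.70, adjusted p = 0.189) and Itgb7 (0.03, adjusted p = 0.780) were not called. Itgb5 passed without KO replicate 3 (adjusted p = 0.0410) and with the Y-linked covariate (0.0254).

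Of 17 other genes of the dystrophin-glycoprotein complex 6 were tested and 1 was called. This was Sntb1, the adaptor β1-syntrophin, which rose with 89.9, 103.0 and 90.1 CPM in KO, against 61.5, 60.1 and 68.0 CPM in WT (log2 fold change 0.58, SE 0.07, edgeR adjusted p = 0.00162). The 3 KO libraries were all higher. Utrn, the utrophin gene and the most abundant of the complex, was not called (log2 fold change -0.06, adjusted p = 0.728). Of 18 genes for the enzymes that build the laminin-binding sugar chain of dystroglycan or supply sugar precursors, 16 were tested, and edgeR called 0. Dpm1, Dpm2, Dpm3, Dolk and Gmppb are of the second kind, and their precursors are not specific to dystroglycan. Of the 16 tested genes of the list, 3 had an unadjusted edgeR p under 0.05, and 0 were called in DESeq2 and 0 in limma-voom. The smallest edgeR p was that of the mannosyltransferase gene Pomt1 (log2 fold change -0.32, SE 0.11, adjusted p = 0.125). The median log2 fold change of the tested genes of this list was -0.08, against 0.004 over all tested genes.

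Among other matrix components the calls were falls. Of 16 basement membrane components 5 were tested, and Nid2, the nidogen that links laminin to collagen IV networks, fell with 2.01, 2.90 and 2.30 CPM in KO, against 7.67, 9.79 and 7.11 CPM in WT (log2 fold change -1.77, SE 0.19, edgeR adjusted p = 0.000818). Its exons overlap those of Rtraf on the opposite strand over 437 bases, so its count is uncertain. Of 18 other matrix glycoproteins 7 were tested and both calls were falls: Ecm1 (log2 fold change -0.48, SE 0.06, adjusted p = 0.00125) and Emilin1, an elastic fibre glycoprotein (-0.98, SE 0.14, adjusted p = 0.00380). Among thrombospondins, Thbs2 had at most 2 reads, Thbs1 at most 14 and Thbs4 none, while Comp (log2 fold change -0.38, adjusted p = 0.499) and the thrombospondin receptor gene Cd47 (0.0006, adjusted p = 0.997) were not called. Thbs3 held 69.6 ± 6.07% of the summed thrombospondin level per kb in KO and 48.0 ± 3.92% in WT. Egfl6, the relative of Npnt, had at most 2 reads.

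Enzymes that cut matrix and inhibitors of these gave 4 falls and no rise among 12 tested genes of 17. Adam19 fell to 173.3 ± 7.74 CPM in KO, against 240.1 ± 15.7 CPM in WT (log2 fold change -0.47, SE 0.06, edgeR adjusted p = 0.00195). Mmp9, which encodes gelatinase B, fell to 5.32 ± 0.98 CPM in KO, against 9.94 ± 1.24 CPM in WT (-0.91, SE 0.16, adjusted p = 0.00949). Timp2, an inhibitor (-0.32, adjusted p = 0.0210), and Mmp14, a membrane-bound protease (-0.68, adjusted p = 0.0420), fell as well. Calls were lost for Mmp9 without WT replicate 2 (0.0528), for Timp2 without WT replicate 1 or 3 (highest 0.0855) and for Mmp14 without any 1 library other than KO replicate 3 (highest 0.155).

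Proteins that link integrins to the cytoskeleton gave 3 rises and no fall among 19 tested genes of 26. Ptk2, which encodes focal adhesion kinase, had 12.3, 10.8 and 12.0 CPM in KO, against 6.08, 6.88 and 7.31 CPM in WT (log2 fold change 0.79, SE 0.12, edgeR adjusted p = 0.00415). Tns4, a tensin, had 2.08 ± 0.14 CPM in KO and 0.49 ± 0.23 CPM in WT (2.07, SE 0.34, adjusted p = 0.00706), and Src, a tyrosine kinase, had 38.7 ± 2.09 CPM in KO and 29.8 ± 1.55 CPM in WT (0.38, SE 0.07, adjusted p = 0.0117). Tns4 had 42, 38 and 50 reads in KO and 7, 7 and 15 reads in WT. Leaving out WT replicate 1 (0.0594) or 3 (0.0516) ended the call of Src. Among 5 tested laminin receptors of other kinds, Sdc1 rose (2.84, SE 0.53, adjusted p = 0.0123), with 31, 39 and 14 reads in KO and 3, 5 and 3 reads in WT, and its call was lost without any 1 of the WT libraries (highest 0.0695). With a filter at a mean of at least 2 CPM neither Tns4 nor Sdc1 was tested, which left 2 calls in the adhesion complex list and 0 among these receptors. Sdc1 is also a plasma cell marker. The other plasma cell markers moved partly with it: Jchain had 373, 361 and 109 reads in KO and 78, 103 and 138 in WT, and Tnfrsf17 at most 2. The 3 markers summed to between 5.53 and 20.4 CPM in KO and between 4.44 and 7.11 CPM in WT, and their part in the rise was not tested. Over all lists, 15 of 93 tested genes other than the 6 were called, 7 higher and 8 lower, or 16.1%, beside 6.45% of all tested genes. The lists were drawn up with earlier results of these data known.

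**Figure D3:**
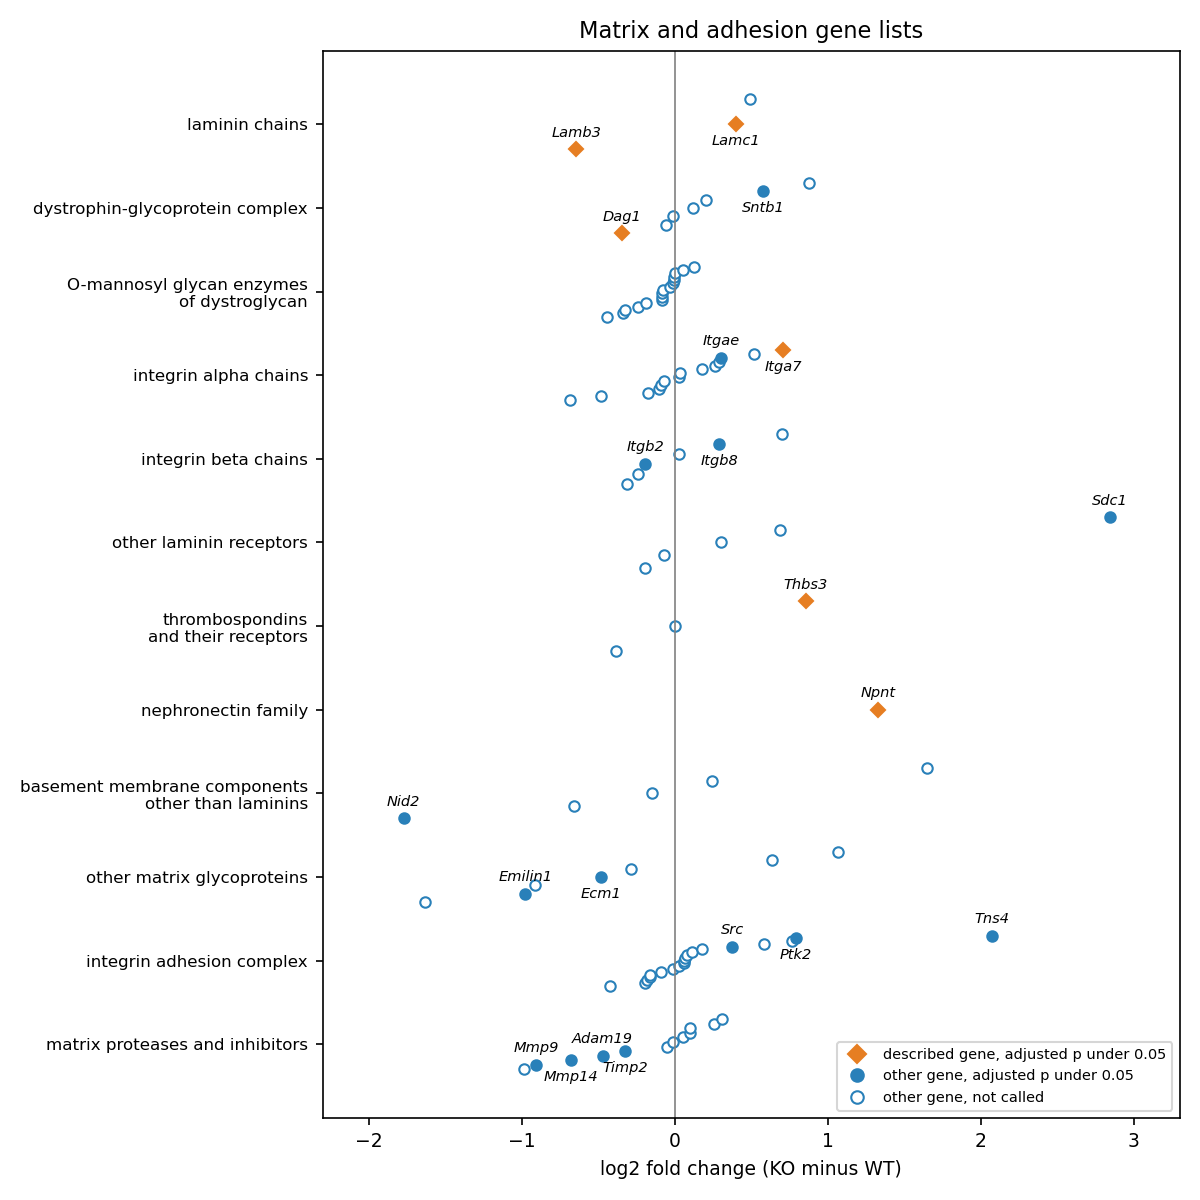
The horizontal axis gives the log2 fold change (KO minus WT) of tested genes in the 12 lists, 1 list per row. Filled symbols are genes with an adjusted p under 0.05, open symbols are not called, and diamonds mark the 6 genes picked by name. Filled circles lie left of 0 in the rows of proteases and of matrix glycoproteins, and right of 0 in that of the integrin adhesion complex.

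For each gene, those whose pattern was most like it were taken from the 9973 officially named genes averaging 2 CPM or more, by Pearson's r of log2 CPM over the 6 libraries. The 6 points include the difference between genotypes, so many genes reach a high r: between 69 and 186 genes exceeded 0.95 with any 1 of the 6. Closest to Dag1 were Sorcs2 (r = 0.995), Eif2b1 (0.994) and Mmp9 (0.994). Lamc1 was most like Ube2b (0.994), Azin1 (0.994) and Myo1e (0.992). Lamb3 had Itm2c (0.997), Tsta3 (0.996) and Cep57l1 (0.992). Thbs3 was most like Spice1 (0.992), Srr (0.990) and Kif3b (0.987). Itga7 followed Jarid2 (0.999), S100a6 (0.999) and Dclk2 (0.998) closely, and Npnt followed Fam234a (0.998), Tpd52 (0.998) and Lsp1 (0.997). The genes most like each other need not change by the same amount: S100a6 had a log2 fold change of 1.21 and Jarid2 of 0.22, beside 0.71 for Itga7.

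**Figure D4:**
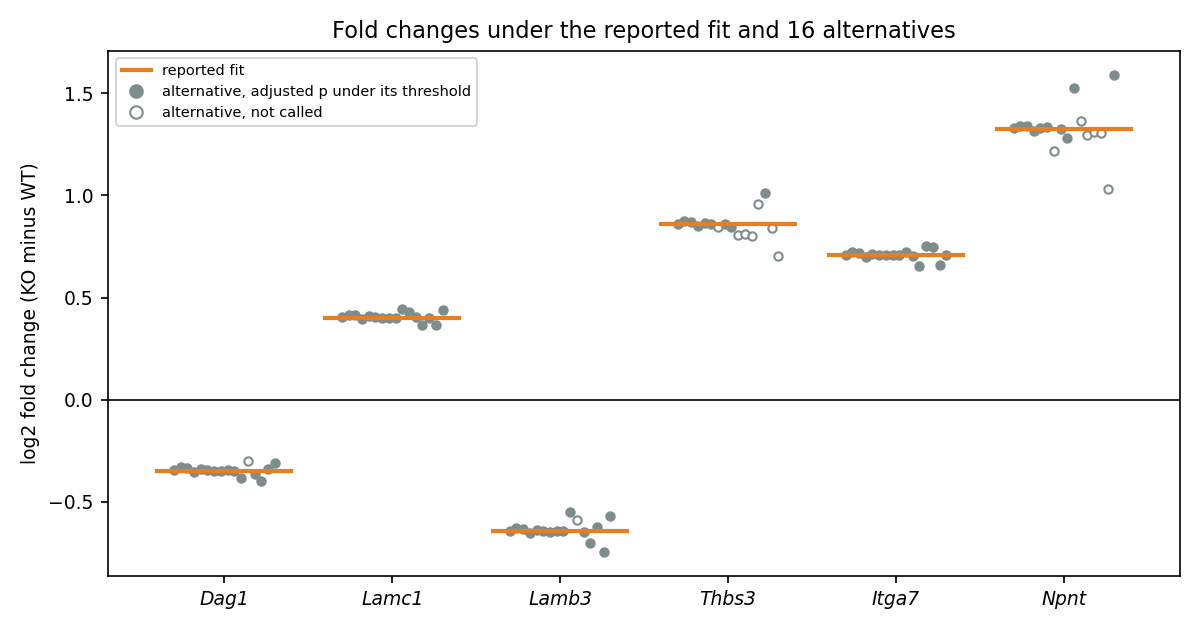
The vertical axis gives the log2 fold change (KO minus WT) of each of the 6 genes. The orange line is the reported value and each point is 1 of 16 alternatives, open where the adjusted p was above the threshold. No point crosses 0. Those of Npnt spread most, between 1.03 and 1.59, and those of Lamc1 and Itga7 are all filled.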

How the data were processed

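Total RNA of GFP-positive splenic Treg cells was sequenced in 6 libraries. Values were deposited as raw, whole-number read counts, 1 column per library, per the file headers. Per the submitters' processing notes, the tools were HISAT2 2.1.0, fastp 0.23.2, DESeq2 1.34.0 and Picard, and the build mm10. Read counter, strand setting and annotation release: not given in the sources used here. Whether replicates are separate animals is not stated, so a p-value covers only the spread among these libraries. Y-linked transcripts had 301, 0 and 450 CPM in KO 1, 2 and 3 and 0, 143 and 242 CPM in WT 1, 2 and 3. The libraries of a genotype were therefore not all repeats of 1 sample, but animals and pools cannot be told apart. No pair within a genotype agreed within sampling noise (chi-square per degree of freedom at least 5.03).

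From the counts, genes were kept by filterByExpr (minimum count 10, minimum total 15), scaled by TMM and compared, KO against WT, by the quasi-likelihood test of edgeR 4.0.16 under R 4.3.3, with Benjamini-Hochberg adjustment over 13602 genes at 0.05. The SE is the log2 fold change divided by the square root of F. The steps were tested on simulated data. Exon lengths and overlaps came from GENCODE M21 (mm10), and promoters from RefSeq. List symbols that differed from the table's were matched by RefSeq gene ID. Floors of 3 counts cover counting error only.

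The genes and the lists were chosen with earlier results of these data known. Besides the 6 genes and Smarcd2, the text names up to 4 called genes per list (or the one with the smallest p), laminin and integrin beta chains, genes with overlapping exons, and the 3 genes most like each. Lama3, Itga8 and other genes at or near 0, Utrn, Itga6, Cd47, Hsd11b1, Gm8818, Gm37691 and the cell markers are named beside these. Some genes of the lists are counted but not reported by name here. Alternatives were other scalings, filters and thresholds, DESeq2 1.42.0, limma-voom (limma 3.58.1), the replicate block, a Y-linked covariate and each library left out.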

Additional observations from a re-analysis of the deposited data

How the results depend on the processing

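All 6 genes kept the sign of their log2 fold change under all 16 alternatives, between -0.40 and -0.30 for Dag1, 0.36 and 0.44 for Lamc1, -0.74 and -0.55 for Lamb3, 0.70 and 1.01 for Thbs3, 0.66 and 0.75 for Itga7 and 1.03 and 1.59 for Npnt. Since the 6 were picked on this comparison, a call kept or lost describes its dependence on the processing and is no support for a difference. Lamc1 and Itga7 were called under each alternative. Dag1 lost its call without WT replicate 2 (adjusted p = 0.0570) and Lamb3 without WT replicate 1 (0.0584). Thbs3 lost it in limma-voom (0.0557), with the Y-linked covariate and without any 1 library other than KO replicate 1 (highest 0.174), and Npnt in limma-voom (0.0711) and without any 1 library other than KO replicate 3 (highest 0.128). With 1 library left out, 3 to 5 of the 6 were called, 344 to 848 of all genes instead of 877, and 9 to 17 of the other list genes instead of 15. The count over all genes was 344 when WT replicate 1 or 2 was left out, each leaving 3 of the 6 called, and 556 without WT replicate 3. Without WT replicate 1 the list genes called were 9. Without a filter 1624 genes and 31 list genes were called, and at an adjusted p under 0.1 there were 1355 and 24. Without a filter, Lama5 (0.00961), Itgb1 (3.65e-05), Itgb3 (0.0125) and Itgb5 (0.0235) were among the calls, and the cause was not tested. The labels do not say whether the numbers pair the libraries. Deviations of same-numbered libraries correlated at -0.14, -0.05 and 0.15 over genes, which cannot decide it with 3 libraries per genotype. With the replicate block 738 genes, all 6 genes and 14 list genes were called. Depth limits Npnt and Thbs3, which had at most 50 reads in a WT library, and the laminin chains with at most 3.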
